A study of Mus musculus with 8 samples.

Results

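Kinesins are motor proteins that walk along microtubules or take their ends apart, using ATP. One branch of the superfamily builds and moves the mitotic spindle and is made mainly by cells about to divide, while another carries vesicles, organelles and ciliary cargo and works in resting cells too. Their genes were picked by symbol, as Kif followed by a number with an optional letter and digit, which found 37 of the 22744 genes in the expression table. They were placed by hand on a list of 13 mitotic spindle kinesins, a list of 13 transport kinesins and a remainder of 11 ciliary, signalling and other kinesins. The symbol rule and the lists were chosen with earlier results of these data known. Kinesins under other symbols, such as Cenpe and the Kifc genes, fall outside the symbol rule and are given as context.

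The series compared whole testes of postnatal day 8 (P8) mice, 3 wild type and 3 null for Dmrt6, all on a C57BL/6 background, by RNA-seq of total RNA. Dmrt6, listed in the table as Dmrtb1, encodes a DNA-binding protein of the DMRT family made in male germ cells. How the null allele was made is not given in the sources used here. A second experiment mapped DMRT6 binding in adult wild-type testis (strain given as C57BL/6, Mixed) with 1 chromatin immunoprecipitation (ChIP) library and 1 input library, using a rabbit antibody raised to the C-terminal part of the protein.

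The 6 RNA libraries held 23.8 to 29.0 M reads in the table, and 3 reads, the most that a gene with no read could plausibly have had, correspond to 0.103 to 0.126 CPM (counting error only). Dmrtb1 was at 3.03, 4.12 and 3.21 log2 CPM (log2 of the read count scaled to library size) in wild-type replicates 1, 2 and 3 and at -0.88, -0.13 and 0.03 in null replicates 1, 2 and 3. The null libraries all lay below the wild-type libraries, a difference of -3.78 (SE 0.36, limma adjusted p = 0.0516). Null replicate 3 stood apart on the first principal component, at 54.3 against -20.2 to 1.68 for the other 5 libraries, with 44.8% of the variance. It was the highest library for 34.5% of all tested genes and the lowest for 34%, and list medians and the differences it moved most are also given without it. Markers of the labelled tissue were present: 14 of 14 spermatogonial and 9 of 9 Sertoli cell genes in the table passed the filter on low values, a mean of at least 0 log2 CPM, against 2 of 9 for late spermatocytes and spermatids.

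Of the 37 kinesin genes, 34 passed that filter and were tested: 12 mitotic, 13 transport and 9 other. None of the 34 passed an adjusted p of 0.05 in limma (smallest adjusted p = 0.755), where 0.00601% of all 16634 tested genes did. At an unadjusted p below 0.05 there were 5 kinesins, 14.7% of those tested, against 3.47% of all tested genes. The mitotic genes Kif11, Kif18a, Kif4 and Kif23 were lower in null and Kif12 was higher. In voom on the recovered reads the counts were also 0 and 5. Without wild-type replicate 1, 2 or 3 the count of 5 came down to 2, 1 and 1, and without null replicate 1 to 3. It was 5 without null replicate 2, though only 2 of those were among the first 5, and 5 without null replicate 3.

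The promoters of the mitotic and transport genes are shown first, because they differ in a feature that the symbols do not use. Genes expressed late in the cell cycle often carry a cell cycle genes homology region (CHR), the element bound by the MuvB core of the DREAM complex, with CCAAT boxes, the site of NF-Y, upstream of it. RefSeq promoters (GRCm38.p6, 250 bases before to 50 after the start) matched 31 of the 37 genes; Kif5a, Kif5b, Kif13b, Kif19a, Kif20a and Kif21b had none. A CHR, searched as TTTGAA or TTCGAA on both strands, was found in 9 of 12 mitotic genes (75%), 1 of 10 transport genes (10%) and 3 of 9 others (33.3%), against 16.3% of 10436 tested genes with a promoter. CCAAT on either strand was found in 7 of 12 mitotic genes (58.3%) and 3 of 10 transport genes (30%), against 43.1% of tested genes. Within 30 bases of the start, a distance chosen after the positions were seen, 7 of 12 mitotic, 0 of 10 transport and 2 of 9 other genes (22.2%, Kif24 and Kif26b) had a CHR, against 2.82% of tested genes. A match is a run of letters and does not show a bound site.

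The sequences from 100 bases before to 30 after the start follow for the 7 mitotic genes with a CHR near the start and, for contrast, for 3 transport genes, of which Kif1b and Kif3a also have a DMRT6 peak within 1 kb of their 5′ end in mm9. They are written 5′ to 3′ on the strand of the gene, with CHR and CCAAT matches on either strand in capitals. In GRCm38.p6 they lie at chr19:37376282-37376411 (Kif11, plus strand), chr9:122950981-122951110 (Kif15, plus strand), chr7:127042391-127042520 (Kif22, minus strand), chrX:100625965-100626094 (Kif4, plus strand), chr11:102925095-102925224 (Kif18b, minus strand), chr9:61946770-61946899 (Kif23, minus strand), chr19:34922258-34922387 (Kif20b, plus strand), chr4:149307704-149307833 (Kif1b, minus strand), chr11:53567269-53567398 (Kif3a, plus strand) and chr2:49619186-49619315 (Kif5c, plus strand). The CHR and CCAAT matches do not overlap each other in these windows.
Kif11: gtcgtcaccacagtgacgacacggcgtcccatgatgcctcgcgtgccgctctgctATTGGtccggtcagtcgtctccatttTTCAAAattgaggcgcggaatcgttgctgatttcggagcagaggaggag
Kif15: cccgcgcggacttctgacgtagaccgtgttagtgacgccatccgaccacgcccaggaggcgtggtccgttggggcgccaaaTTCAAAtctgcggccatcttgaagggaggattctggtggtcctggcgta
Kif22: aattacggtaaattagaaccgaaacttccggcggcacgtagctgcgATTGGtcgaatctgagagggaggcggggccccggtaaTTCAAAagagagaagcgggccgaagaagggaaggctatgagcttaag
Kif4: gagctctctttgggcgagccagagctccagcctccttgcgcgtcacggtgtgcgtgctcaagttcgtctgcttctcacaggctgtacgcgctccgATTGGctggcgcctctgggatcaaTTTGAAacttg
Kif18b: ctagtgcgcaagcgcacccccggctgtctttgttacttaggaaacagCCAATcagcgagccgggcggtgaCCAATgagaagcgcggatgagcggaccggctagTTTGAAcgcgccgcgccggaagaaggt
Kif23: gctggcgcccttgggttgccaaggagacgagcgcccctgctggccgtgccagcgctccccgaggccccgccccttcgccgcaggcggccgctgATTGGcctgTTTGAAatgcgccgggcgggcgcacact
Kif20b: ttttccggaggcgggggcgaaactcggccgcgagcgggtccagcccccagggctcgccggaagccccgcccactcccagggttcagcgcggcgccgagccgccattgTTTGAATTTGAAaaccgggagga
Kif1b: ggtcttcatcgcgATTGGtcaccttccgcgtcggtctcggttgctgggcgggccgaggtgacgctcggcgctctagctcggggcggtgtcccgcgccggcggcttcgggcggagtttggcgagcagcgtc
Kif3a: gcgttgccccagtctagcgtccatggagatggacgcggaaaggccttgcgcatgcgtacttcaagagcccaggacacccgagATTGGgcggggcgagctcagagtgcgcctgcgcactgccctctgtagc
Kif5c: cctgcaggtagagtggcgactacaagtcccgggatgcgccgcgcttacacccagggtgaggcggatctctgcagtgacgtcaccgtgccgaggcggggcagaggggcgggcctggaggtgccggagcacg

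In Kif11 the CHR begins 19 bases before the start, 26 bases after a reversed CCAAT box. In Kif22 it begins 17 bases before the start, 37 bases after its CCAAT box, and in Kif18b it begins at base 4 of the transcript, 33 bases after the nearer of its CCAAT boxes. Kif4 and Kif23 have the CHR at bases 20 and 3 with a CCAAT box closer by, 24 and 9 bases upstream. Kif20b holds CHR matches at bases 8 and 14, end to end, and Kif15 has one at 19 bases before the start with no CCAAT box in the window shown. In Kif2c (103 bases before the start) and Kif14 (228 before) the match lies farther out, and Kif2a, Kif2b and Kif18a had none. The windows of Kif1b and Kif3a hold a CCAAT box without a CHR and that of Kif5c holds neither. The palindromic core of the DMRT family's site, searched as ACANTGT, was found in 0 of the 31 kinesin genes, against 5.21% of tested genes. That says only that these letters are not in this window.

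**Figure D1:**
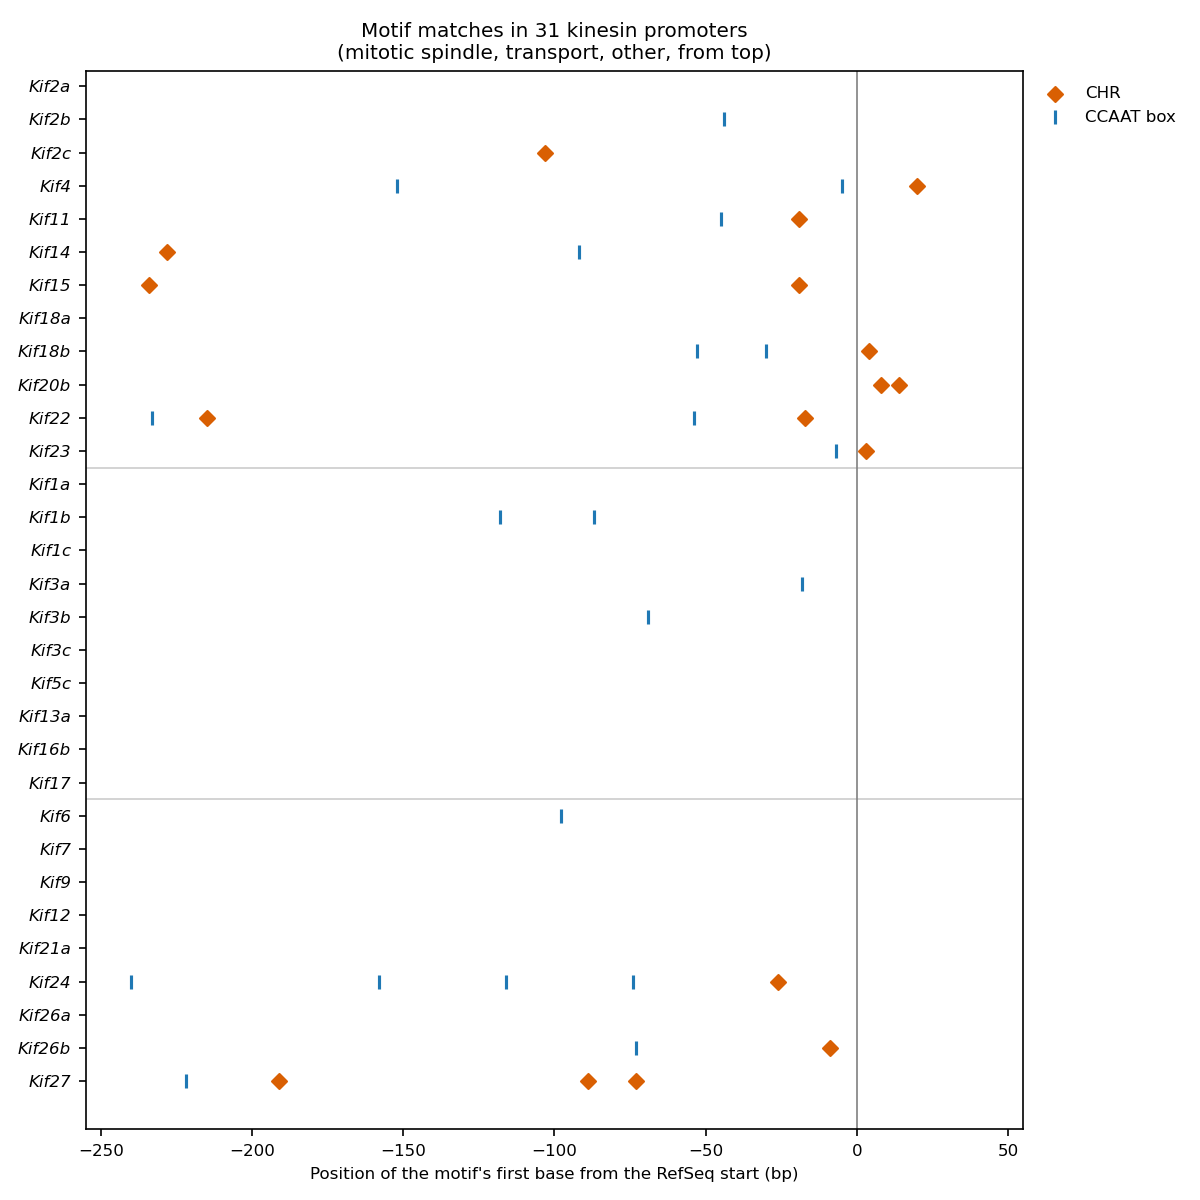
Positions of CHR matches (diamonds) and CCAAT boxes (bars) in the first RefSeq promoter of each of 31 kinesin genes; the x axis is the distance of the motif's first base from the start in bp, and horizontal lines separate mitotic, transport and other genes. CHR matches gather near the start in 7 of 12 mitotic, 0 of 10 transport and 2 of 9 other genes; the 1 transport match, in a further promoter of Kif1a, is not drawn.

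Most mitotic spindle kinesins were slightly lower in null testis. Their difference was negative for 10 of 12 tested genes, with a median of -0.18 log2 CPM (range -0.31 to 0.18), against 0.01 for all tested genes. All 3 null libraries lay below all 3 wild-type libraries for 7 of the 12 (58.3%), namely Kif4, Kif11, Kif15, Kif18a, Kif20b, Kif22 and Kif23, where 6.02% of all tested genes did so, and 0 of 12 were higher without overlap, against 5.06% of all tested genes. At an unadjusted p below 0.05, 4 of 12 were lower, against 1.85% of all tested genes. All 12 were read in the same libraries, so these are not counts of independent observations. In whole tissue, fewer cells of a type and less RNA per cell cannot be told apart. In what follows, the values of a gene are log2 CPM in replicates 1, 2 and 3 of each genotype, in that order, and differences are null minus wild type on that scale with the SE of limma. The adjusted p of each of the 34 tested kinesins lay between 0.755 and 0.978 and is not repeated.

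Kif11, the motor that slides antiparallel microtubules to push the spindle poles apart (ENSMUSG00000012443, chromosome 19, 37450893 to 37496349, plus strand, mm9), was at 7.52, 7.52 and 7.54 in wild type and at 7.32, 7.16 and 7.17 in null. The wild-type libraries were nearly equal (SD 0.01, n = 3) and each null library was lower, giving -0.31 (SE 0.09), or 0.808 times wild type. Its unadjusted p was below 0.05 in the reported fit and in all 14 alternative fits, the only kinesin for which this held, while its adjusted p in limma ran from 0.0638 to 1 over them. Kif15, which shares the task of keeping the spindle bipolar, was at 6.23, 6.29 and 6.25 against 6.20, 6.04 and 5.98. The groups did not overlap but null replicate 1 lay 0.03 below the lowest wild-type library, and the difference was -0.19 (SE 0.10).

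The chromokinesins, which bind chromosome arms, were both lower without overlap. Kif4, which also shapes chromosomes and the midzone of the anaphase spindle, was at 6.37, 6.34 and 6.42 in wild type and at 6.23, 6.01 and 6.14 in null. The difference was -0.25 (SE 0.10), with null replicate 2 the lowest library. Kif22, which pushes chromosome arms toward the metaphase plate, was at 6.22, 6.17 and 6.30 against 6.12, 6.06 and 5.99, a difference of -0.17 (SE 0.10). Kif4 overlaps Pdzd11 on the opposite strand by 832 bp (mm9), and any use of strand in the counting is not given in the sources used here.

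Kif18a and Kif18b dampen the growth of microtubule ends. Kif18a, which limits the swings of chromosomes at the metaphase plate, was at 5.85, 5.88 and 5.87 in wild type and at 5.60, 5.67 and 5.57 in null. All null libraries were lower by more than the spread within either genotype (SD 0.01 and 0.05, n = 3 each), a difference of -0.25 (SE 0.09). Kif18b, which acts on the astral microtubules, was at 4.95, 4.94 and 4.58 against 4.80, 4.38 and 5.44. Its null libraries held both its lowest and its highest value, and the difference of 0.05 (SE 0.26) became -0.23 without null replicate 3.

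Of the kinesins of the late spindle and of cytokinesis, Kif23 and Kif20b were lower without overlap, and the groups overlapped for Kif20a and Kif14. Kif23, the motor of centralspindlin, was at 7.20, 7.18 and 7.26 in wild type and at 7.07, 6.95 and 6.95 in null, a difference of -0.22 (SE 0.09) with no overlap. Kif20b, needed for the last steps of cytokinesis, was at 6.81, 6.89 and 6.94 against 6.80, 6.70 and 6.55. Its groups were separated by only 0.01 between wild-type replicate 1 and null replicate 1, and the difference was -0.20 (SE 0.10). Kif20a, which brings the chromosomal passenger complex to the midzone, was at 7.06, 7.15 and 7.16 against 7.08, 7.00 and 6.97, and its groups overlapped (-0.11, SE 0.09). Kif14, a midbody kinesin, was at 5.39, 5.36 and 5.34 against 5.43, 5.20 and 5.40. Null replicate 1 was its highest and null replicate 2 its lowest library, with a difference of -0.02 (SE 0.11).

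For both tested microtubule depolymerases, Kif2c and Kif2a, the groups overlapped. Kif2c, which frees wrongly attached microtubules at centromeres, was at 6.50, 6.68 and 6.64 in wild type and at 6.57, 6.48 and 6.61 in null (-0.06, SE 0.10), with overlapping groups. Kif2a, which acts at spindle poles and also in neurons, was at 5.86, 5.94 and 5.80 against 5.95, 5.89 and 6.29, a difference of 0.18 (SE 0.13) that came down to 0.05 without null replicate 3. Kif2b, with read counts of 0, 4 and 5 for wild type and 0, 2 and 2 for null, did not pass the filter, so no fold is given. On the opposite strand, Kif18b overlaps Gm17536 over its whole span, by 19596 bp. Also on the opposite strand, Kif2a overlaps Dimt1 by 1229 bp, Kif20a overlaps Cdc23 by 2315 bp and Kif18a overlaps Mettl15 by 11 bp.

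**Figure D2:**
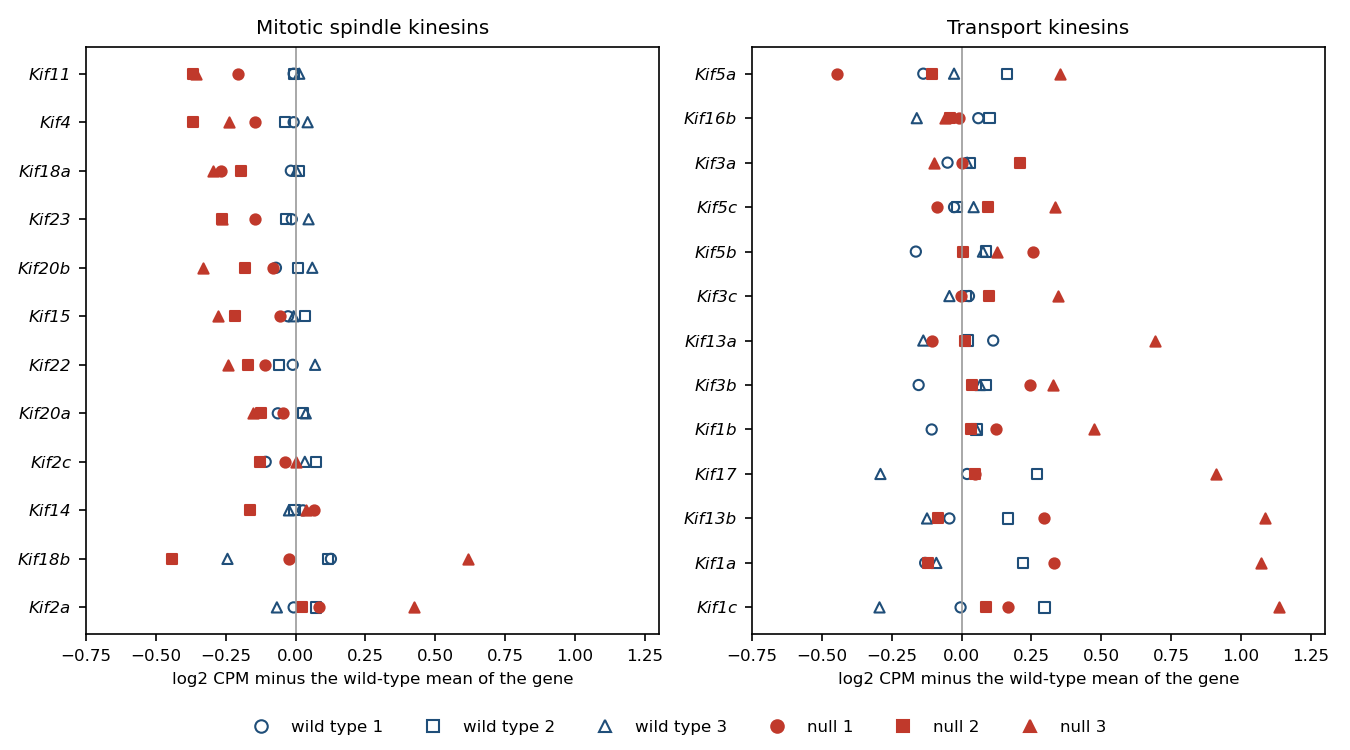
Log2 CPM of each tested mitotic (left) and transport (right) kinesin in each library, minus the wild-type mean of the gene; open blue symbols are wild-type libraries, filled red symbols null libraries, and the shape gives the replicate number. Null symbols lie left of wild type for most mitotic genes. Among transport genes null replicate 3 lies farthest right for 10 of 13, and the other 2 null libraries lie mostly among the wild-type libraries.

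Transport kinesins leaned the other way, and 1 library carried most of it. The difference was positive for 11 of 13, with a median of 0.20 (range -0.07 to 0.46). But the genotypes overlapped for each of the 13, where 6.02% of all tested genes were lower and 5.06% higher without overlap. An unadjusted p below 0.05 in limma was found for 0 of 13, against 3.47% of all tested genes. On a list of 13, counts of 0 are near these shares. Null replicate 3 was the highest library for 10 of 13 (76.9%). Without it the median was 0.08 and 9 of 13 were higher, whereas the mitotic median was -0.14 and 11 of 12 were lower.

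The Kif1 motors carry synaptic vesicle precursors, mitochondria and other vesicles. Kif1a was at 5.06, 5.41 and 5.10 in wild type and at 5.52, 5.07 and 6.26 in null, a difference of 0.43 (SE 0.27) that was 0.10 without null replicate 3. Kif1b was at 6.87, 7.03 and 7.03 against 7.10, 7.01 and 7.45 (0.21, SE 0.13), or 0.08 without null replicate 3. Kif1c was at 5.89, 6.19 and 5.60 against 6.06, 5.98 and 7.03, the largest difference of the list at 0.46 (SE 0.28), which came down to 0.13 without that library. In all 3 genes null replicate 2 lay within the range of wild type, and null replicate 3 was the highest of all.

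Heterotrimeric kinesin drives transport into cilia, with Kif3a and Kif3b as its usual motor pair. Kif3a was at 6.77, 6.85 and 6.84 in wild type and at 6.82, 7.03 and 6.72 in null, a difference of 0.04 (SE 0.10), or 0.10 without null replicate 3, its lowest library. Kif3b was at 6.05, 6.29 and 6.27 against 6.45, 6.24 and 6.53, giving 0.20 (SE 0.12). Kif3c, which can pair with Kif3a in place of Kif3b, was at 4.41, 4.40 and 4.34 against 4.38, 4.48 and 4.73 (0.14, SE 0.13), or 0.05 without null replicate 3. The ciliary motor thus showed no shared direction by library: null replicate 3 was highest for Kif3b and Kif3c and lowest for Kif3a. Kif17, a further ciliary and dendritic motor, was at 2.37, 2.62 and 2.06 against 2.40, 2.40 and 3.26 (0.34, SE 0.28), or 0.05 without null replicate 3. Its span overlaps Sh2d5 on the same strand by 10898 bp, so reads may be shared between them.

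Conventional kinesin is built on a heavy chain from Kif5a, Kif5b or Kif5c. Kif5b, the widely expressed form, was at 8.15, 8.40 and 8.39 in wild type and at 8.57, 8.32 and 8.44 in null (0.13, SE 0.11). Kif5c was at 5.23, 5.24 and 5.30 against 5.17, 5.35 and 5.59 (0.11, SE 0.13), and without null replicate 3 its difference was 0 to 2 decimals. Kif5a, known from neurons, was at 4.13, 4.43 and 4.24 against 3.82, 4.16 and 4.62 (-0.07, SE 0.21), or -0.28 without null replicate 3. The 3 chains differed in which null library was highest, replicate 1 for Kif5b and replicate 3 for the other 2.

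Of the endosomal motors, Kif13a was at 4.80, 4.71 and 4.55 in wild type and at 4.58, 4.70 and 5.38 in null, so that its 0.20 (SE 0.21) rested on null replicate 3 and was -0.05 without it. Kif13b was at 4.91, 5.12 and 4.83 against 5.25, 4.87 and 6.04 (0.43, SE 0.27), or 0.10 without null replicate 3. Kif16b was at 5.93, 5.97 and 5.71 against 5.86, 5.83 and 5.81 (-0.04, SE 0.11), and all of its null libraries lay inside the wild-type range.

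**Figure D3:**
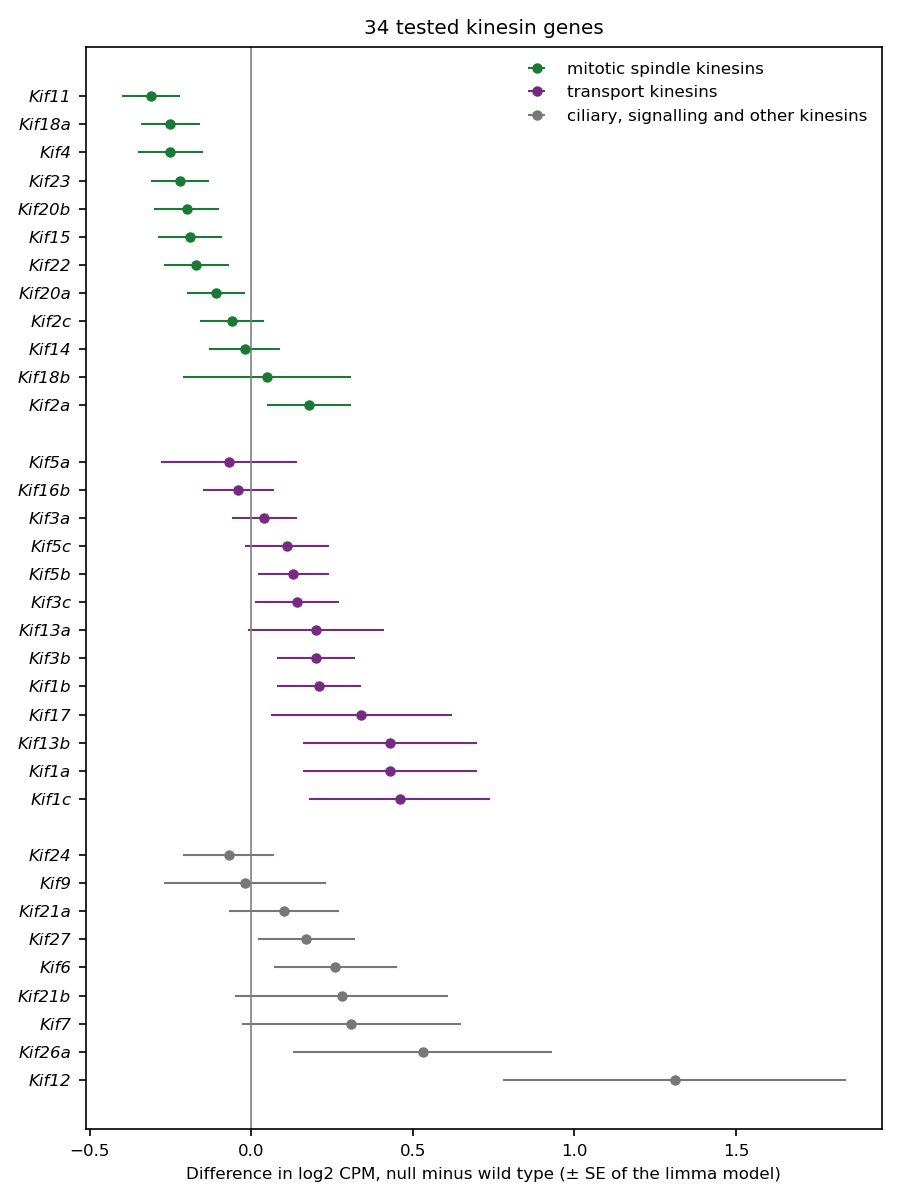
Difference in log2 CPM (null minus wild type) for the 34 tested kinesins, with bars of 1 SE from limma; colours give the list. Mitotic genes lie mostly left of 0, from -0.31 for Kif11 to 0.18 for Kif2a, transport genes mostly right of it, from -0.07 to 0.46, with wider bars, and Kif12 is highest at 1.31.

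The contrast between the lists was -0.38 (mitotic median minus transport median), or -0.22 without null replicate 3. By library, the mean of the 12 mitotic genes, each centred on its own mean over the 6 libraries, was 0.05, 0.08 and 0.06 in wild type and -0.02, -0.15 and -0.03 in null. The same score for the 13 transport genes was -0.15, 0.02 and -0.17 against -0.04, -0.08 and 0.41. Mitotic minus transport was 0.20, 0.06 and 0.23 in wild type and 0.02, -0.07 and -0.44 in null, so the genotypes did not overlap on it. No p is given for these scores, since the lists were chosen. Summed over the list, mitotic kinesins came to 1087 to 1124 CPM in wild type and 951 to 1035 in null, and transport kinesins to 870 to 989 and 951 to 1200 CPM.

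**Figure D4:**
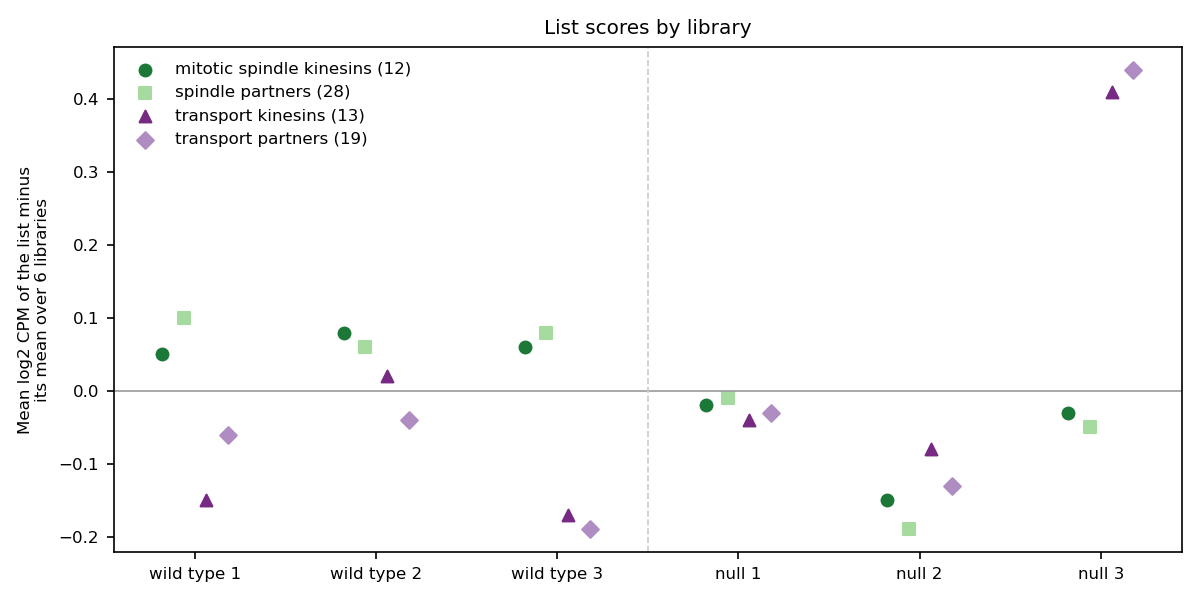
List scores in each library (mean log2 CPM of the list minus its mean over 6 libraries) for mitotic and transport kinesins and for their partner genes, with the number of tested genes in the key; the dashed line separates wild type from null. The 3 null libraries lie below the 3 wild-type libraries for mitotic kinesins (-0.15 to -0.02 against 0.05 to 0.08) and spindle partners, and null replicate 3 lies far above the rest for the transport lists (0.41 and 0.44).

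The partners of each list lay on its side of 0 in most cases. Of 28 spindle partners, kinases, kinetochore and midzone proteins that work beside the mitotic kinesins, 25 were lower, with a median of -0.19; 13 were lower without overlap (46.4%, against 6.02% of all tested genes), 9 were lower at an unadjusted p below 0.05 (32.1%, against 1.85%) and 0 passed the adjustment. Nuf2, a kinetochore protein, was at 6.22, 6.21 and 6.28 in wild type and at 6.01, 5.89 and 5.82 in null (-0.33, SE 0.10). The spindle protein Nusap1 (-0.38, SE 0.12), the cyclin Ccnb2 (-0.35, SE 0.12) and the proliferation marker Mki67 (-0.27, SE 0.09) were also lower in all null libraries. Of 19 tested transport partners, light chains, cargo adaptors and dynein subunits, 16 were higher with a median of 0.17, or 0.02 without null replicate 3. None had an unadjusted p below 0.05, against 3.47% of all tested genes. The 4 with the smallest p were Bicd2 (0.33, SE 0.18), Klc2 (0.45, SE 0.25), Dync1h1 (0.43, SE 0.27) and Mapk8ip3 (0.31, SE 0.20), and null replicate 3 was the highest library for each. Without it these came to 0.11, 0.14, 0.07 and 0.06.

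Kinesins outside the symbol rule lay on both sides. Cenpe, Kifc1 and Kifc5b are also on the list of spindle partners and were counted there. Cenpe, the kinetochore kinesin that tethers chromosomes to microtubule ends, was at 7.63, 7.66 and 7.68 in wild type and at 7.55, 7.55 and 7.35 in null (-0.17, SE 0.09), without overlap. Stard9, a centrosomal kinesin, was at 7.28, 7.37 and 7.35 against 7.53, 7.43 and 7.38, higher without overlap by 0.12 (SE 0.09). Kifc2, of the minus-end directed group, differed by 0.41 (SE 0.30), with overlap, or by 0.10 without null replicate 3. Kifc1 (0.00, SE 0.25) and Kifc5b (0.12, SE 0.18) are close copies whose reads may be shared, and their values are uncertain. The list also held Ttc21b, an intraflagellar transport gene and no kinesin, at 6.04, 6.30 and 6.29 against 6.39, 6.39 and 6.37 (0.18, SE 0.10).

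None of the marker genes of other cells passed the adjustment. Of the marker list sums, those of red blood cells and of late spermatocytes and spermatids did not overlap between genotypes. The late list came to 6.84 to 8.23 CPM in wild type and 8.33 to 9.01 in null, with 2 of its 9 genes tested. Red blood cell markers were lower for 5 of 5 tested genes, with a median of -0.66 (-0.43 without null replicate 3) and a list sum of 1478 to 1777 CPM in wild type and 718 to 1255 in null. Macrophage and leukocyte markers were lower for 8 of 9 (124 to 189 against 117 to 144 CPM) and endothelial markers for 4 of 6 (180 to 230 against 155 to 191 CPM). Spermatogonial markers were higher for 10 of 14 (1423 to 1619 against 1539 to 1897 CPM), with a median of 0.26, or 0.06 without null replicate 3. Of these, Kit, Sohlh1, Sohlh2 and Lin28a were higher without overlap (28.6% of the list, against 5.06% of all tested genes), by 0.28 to 0.43, or 0.23 to 0.27 without that library. Sertoli cell markers were higher for 6 of 9 (3079 to 3413 against 2806 to 3533 CPM), with a median of 0.19, or -0.02 without it. Leydig cell markers were lower for 5 of 8 (803 to 976 against 740 to 865 CPM), with a median of -0.28, or -0.22 without it. Lower without overlap were 2 of the 8 Leydig markers, Hsd3b1 and Hsd17b3 (25%), against 6.02% of all tested genes. The same held for 4 of 5 red blood cell (80%), 2 of 9 macrophage and leukocyte (22.2%) and 1 of 6 endothelial markers (16.7%). Early meiotic markers were lower for 6 of 9 (340 to 426 against 349 to 407 CPM). Peritubular and stromal markers were lower for 5 of 8 (4751 to 5095 against 3840 to 5821 CPM). Nerve and glia markers were lower for 4 of 7 tested (130 to 160 against 112 to 187 CPM), with 1 of 7 (14.3%) lower without overlap. Spata16, on the late list, was at 0 reads in some libraries, and no marker on the other lists given here was at 0 in any. The part of these marker lists in the kinesin differences was not tested.

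The 9 other tested kinesins had a median difference of 0.26, or 0.00 without null replicate 3, with 7 of 9 higher. All groups overlapped, where 6.02% of all tested genes were lower and 5.06% higher without overlap. Kif12, known from epithelia of kidney and liver (ENSMUSG00000028357, chromosome 4, 62826668 to 62833165, minus strand, mm9), was at 2.07, 0.53 and 0.84 in wild type and at 2.66, 3.24 and 1.49 in null. Null replicate 3 lay below wild-type replicate 1, and the difference was 1.31 (SE 0.53), or 2.49 times wild type, at levels between 1.44 and 9.46 CPM. Foxj1, the master regulator of motile cilia, was at 1.34, 0.35 and 0.87 against 1.35, 2.67 and 2.03, so both genes were highest in null replicate 2. The 5 tested markers of multiciliated epithelium had a list score of 0.76 in that library and of -0.39 to 0.14 in the others, and summed to 36.7 to 46.8 CPM in wild type and 38.2 to 59.9 in null. Their part in the Kif12 difference was not tested.

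Kif6 (0.26, SE 0.19) and Kif9 (-0.02, SE 0.25), both linked to motile cilia and flagella, and Kif27 (0.17, SE 0.15), a relative of Kif7, were highest in null replicate 2 as well. So were 17% of all tested genes. The margin was small for Kif9 (2.76 against 2.74 in wild-type replicate 3) and Kif27 (4.39 against 4.32 in wild-type replicate 2). Kif7, which works in Hedgehog signalling at the ciliary tip, was at 3.67, 3.89 and 3.63 in wild type and at 3.51, 3.70 and 4.92 in null, so its 0.31 (SE 0.34) turned to -0.13 without null replicate 3. Kif21b (0.28, SE 0.33) and Kif26a (0.53, SE 0.40) were likewise highest in null replicate 3 and came to -0.14 and 0.00 without it. Kif21a, a regulator of microtubule growth, differed by 0.10 (SE 0.17), and Kif24, which trims microtubules at the mother centriole, by -0.07 (SE 0.14). Of the untested genes, Kif19a, which limits the length of cilia, was counted at 8, 31 and 11 reads for wild type and 20, 37 and 38 for null, and Kif26b at 18, 30 and 12 against 9, 30 and 61.

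DMRT6 peaks were found near kinesin genes about as often as near other genes. The authors' list holds 14862 peaks from the single ChIP library, with scores from 50.02 to 3100, a value of their peak caller used here only to describe and rank. The middle of at least 1 peak fell within 10 kb of the 5′ end of 13 of the 37 kinesin genes (35.1%), against 27.9% of all genes in the table, and within 1 kb of 6 (16.2%), against 12.9%. A peak lay over the body of 15 (40.5%), against 22.4%, and kinesin genes are also longer, with a median of 48.2 kb against 14.6 kb. Among tested genes only, the body shares were 41.2% and 26.2%, with median lengths of 49.9 and 19.0 kb. The shares within 10 kb were then 35.3% and 31.2%. The part of gene length in these shares was not tested. By list, 5 of 13 mitotic, 6 of 13 transport and 2 of 11 other genes had a peak within 10 kb, or 38.5%, 46.2% and 18.2%. The RNA came from P8 and the ChIP from adult testis, which hold different germ cells.

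Within 1 kb there were 3 mitotic and 3 transport genes (mm9 positions). Kif2c had a peak 27 bp upstream of its 5′ end (chromosome 4, 116855165 to 116855377, score 150) and another 7.82 kb upstream. Kif15 had one 74 bp upstream (chromosome 9, 122860003 to 122860247, score 118), whose middle is nearer, at 7 bp, to the 5′ end of 1110059G10Rik. Kif22 had one 782 bp upstream (chromosome 7, 134186576 to 134186855, score 275). Of these 3 genes, Kif15 and Kif22 were lower in null without overlap and Kif2c was not. Lower without overlap were 7 of the 12 tested mitotic kinesins (58.3%) and 6.02% of all tested genes.

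Among transport genes, the Kif1b peak lay 121 bp upstream (chromosome 4, 148681797 to 148682049, score 122) and the Kif13b peak 163 bp upstream (chromosome 14, 65271178 to 65271375, score 81.3). The Kif3a peak lay 99 bp upstream (chromosome 11, 53380704 to 53380860, score 54.9) and nearer to A430108G06Rik, at 33 bp. The median score over all peaks is 94.7.

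The peaks of highest score lay farther from the 5′ ends. Kif26a, an atypical kinesin with a role in signalling, had the peak of rank 35 by score (1270) 18.6 kb inside the gene (chromosome 12, 113402763 to 113403405), and 2 weaker ones within 10 kb. Kif18b had a peak of score 662 at 8.30 kb upstream, one of 396 at 6.56 kb inside the gene and one of 783 at 15.2 kb upstream, nearer to C1ql1. Kif13a carried 5 peaks over its body of 181 kb and Kif6 carried 4. Kif18a had a peak 6.64 kb inside the gene (score 97.7), whereas Kif11, Kif23, Kif20b and Kif4 had their nearest peak 27.2, 54.0, 174 and 597 kb away.

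The peaks were then set beside the expression differences. Of the 7 genes lower in null without overlap, 3 had a peak within 10 kb (Kif15, Kif18a and Kif22), against 9 of the 27 other tested kinesins. The median difference was 0.04 for the 12 tested kinesins with such a peak and 0.12 for the 22 without one. Over all 34 tested kinesins the median was 0.11, or -0.01 without null replicate 3. The medians by peak were not computed without that library. Of the 8 tested kinesins with a CHR within 30 bases of the start, 6 were lower without overlap (75%) and Kif18b and Kif24 overlapped, while Kif18a was lower without overlap and had no CHR. Among all 295 tested entries of the table with such a CHR, 15.6% were lower without overlap, with a median difference of -0.04, against 6.02% and 0.01 for all tested genes. These are descriptions, since the lists and the distance of 30 bases were chosen with the values known.

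**Figure D5:**
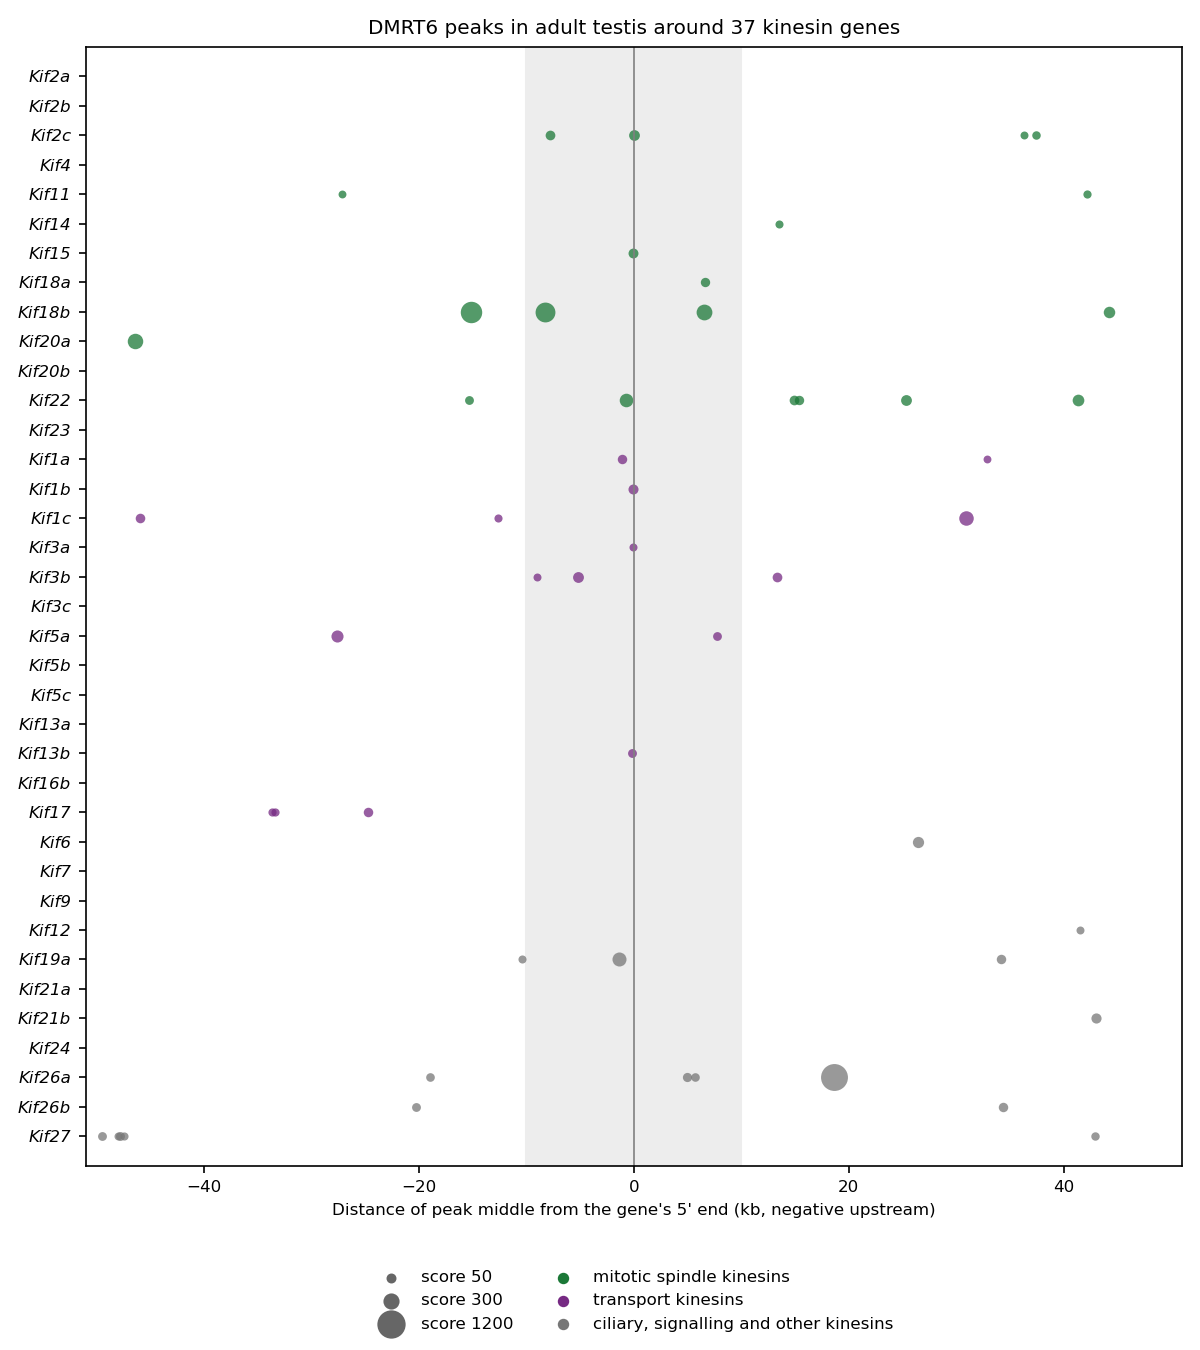
DMRT6 peaks within 50 kb of the 5′ end of each of the 37 kinesin genes; the x axis is the distance of the peak's middle in kb (negative upstream), the size of a point grows with the authors' score and the shaded band spans 10 kb on either side. Peaks fall in the band for 5 mitotic, 6 transport and 2 other genes, and the largest point is the peak inside Kif26a.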

How the data were processed

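RNA-seq values were deposited by the authors as log2 CPM in 1 table of 22744 genes with mm9 coordinates. Per the submitters' processing notes, the tools were STAR 2.3.0e, edgeR, Picard and Bowtie2 and the build mm9, with no roles named. Which program counted reads, and whether it used strand, is not given in the sources used here. Whole reads were recovered from the steps of the values (100% whole at a tolerance of 1e-06). The authors' peak list, from 1 ChIP and 1 input library, gives a score per peak whose scale is not stated.

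Genes with a mean of at least 0 log2 CPM (16634) were tested with limma-trend (limma 3.58.1, R 4.3.3), genotype as the only term, Benjamini-Hochberg adjustment over all of them and a threshold of 0.05. The labels call the 3 libraries of a genotype replicates and the design text calls them biological. An exact permutation test of 3 against 3 cannot go below 0.1. The fit was tested on simulated data. The members and lists were chosen with earlier results of these data known. Values were given for every tested mitotic and transport kinesin, other members with an unadjusted p below 0.05 or a peak within 1 kb, and the 4 genes of smallest p on each list of partners and further kinesins; marker lists were given by counts. Kif7, Kif9, Kif27, Foxj1, Kifc1, Kifc5b and the markers named singly were chosen after their values were seen. A gene's 5′ end is the outer end of its span. Promoters are RefSeq's and share no coordinates with mm9. Levels per coding length were not computed, so levels were not compared between genes.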

Additional observations from a re-analysis of the deposited data

How the results depend on the processing

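With 3 libraries a genotype, small differences cannot be told from library spread: 0 of 34 kinesins passed the adjustment in the reported fit and in 13 of 14 alternatives. With array weights 1 did (Kif12, 1.67, adjusted p = 0.0394). Those weights ran from 0.153 for null replicate 3 to 19.3 for null replicate 1, their fit did not converge well, and they also gave 136 genes in all, 11 kinesins at an unadjusted p below 0.05, a mitotic median of -0.08 and a contrast of -0.10. All-gene calls were 1 as reported, 3 with no filter, 0 at a mean of at least 2, 3 with median centring, 2 with quantile normalization and 0 to 5 with 1 library left out. Kinesins at an unadjusted p below 0.05 numbered 1 to 5 with 1 library left out. With the replicate block, all-gene calls were 2 and those kinesins 2. No pairing of libraries by number is stated in the labels. Same-numbered deviations correlated at -0.0853, -0.217 and -0.0394, and no library correlated best with its own number. Deviations from means of 3 libraries cannot exclude a pairing. Kinesins with a peak numbered 6 within 1 kb, 23 within 50 kb and 8 within 10 kb at a score of at least 100, against 13 as reported.

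Single-gene differences turned their sign, by a value that does not round to 0 at 2 decimals, in 22 of 475 refits. Without null replicate 3, those of Kif26a, Kif5c and Kif9 rounded to 0, from 0.53, 0.11 and -0.02. With array weights the sign turned for Kif13a (-0.10), Kif14 (0.07), Kif18b (-0.03), Kif21b (-0.05), Kif3a (-0.01), Kif5c (-0.08) and Kif7 (-0.24), and with median centring for Kif3a (-0.01). With 1 library left out, the lowest and highest values were -0.05 and 0.35 for Kif13a, -0.06 and 0.05 for Kif14, -0.12 and 0.01 for Kif16b, -0.23 and 0.30 for Kif18b, -0.03 and 0.26 for Kif21a, -0.14 and 0.56 for Kif21b, -0.15 and 0.01 for Kif24, -0.05 and 0.10 for Kif3a, -0.28 and 0.12 for Kif5a, -0.13 and 0.58 for Kif7, -0.21 and 0.14 for Kif9. The cause of these changes was not tested. Levels per kb of coding length were planned and not run.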
